A study of Homo sapiens with 4 samples.

Results

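The genes of the proteasome were compared between DEK knockout and control cells of the line 786-O, which was derived from a human clear cell kidney carcinoma. DEK is a protein of chromatin that acts as a histone chaperone. The genes were chosen by symbol alone: PSMA, PSMB, PSMC and PSMD followed by a number, and PSME1 to PSME4, without the inducible core subunits PSMB8, PSMB9 and PSMB10. This gave 40 of the 59409 gene symbols of the deposited table. Polyadenylated RNA was sequenced in 2 libraries of DEK knockout cells and 2 libraries of wild-type cells labelled negative control. The control libraries are also labelled Cas9. The parent was a clone that expresses Cas9 from a lentivirus, and knockout clones were obtained from it with guides against DEK, delivered by a second lentivirus, and sorting of single cells. The number of knockout clones, and whether replicate libraries stand for separate clones or cultures, is not stated in the labels. The p-values therefore set each group difference only against the spread of these libraries, and that spread may be technical.

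The proteasome degrades proteins marked with ubiquitin. Its catalytic core is a barrel of outer alpha rings, which form the gate, and inner beta rings, which hold the cutting sites. A regulatory particle caps the barrel: its base carries ATPases that unfold the substrate and receptors that bind ubiquitin, and its lid removes the ubiquitin chain before the substrate enters. Activators of the PSME family can take the place of the regulatory particle, and a set of chaperones helps to assemble the complex. Cells keep the subunit genes at high and coordinated levels, mainly through the transcription factor NFE2L1, and interferons raise a set of alternative core subunits together with PSME1 and PSME2.

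Values are TPM, transcripts per 1000000, which are already divided by gene length. Levels can therefore be set side by side between genes and between libraries as shares of all transcripts. Log2 fold changes are knockout over control on the log2(TPM + 1) scale, given with their standard error (SE), and other folds are ratios of mean TPM. A gene was called where its limma p-value, adjusted over all 15815 tested genes, was under 0.05. In cultured cells measured in bulk, fewer cells of a kind and less RNA per cell cannot be told apart.

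DEK mRNA was at 31.4 and 15.7 TPM in the knockout libraries, against 95.02 and 76.3 TPM in the controls. The mean was 23.6 ± 11.1 TPM in knockouts and 85.6 ± 13.3 TPM in controls (SD, n = 2 each), at a log2 fold change of -1.89 (SE 0.33) and a limma adjusted p of 0.030. The renal marker PAX8 was at 140.1 and 160.4 TPM in knockouts and 153 and 142 TPM in controls. Of 7 markers of the line, PAX2 and CDH6 fell, KRT18 rose and PAX8, KRT8, VIM and EPAS1 were not called. The share called was 42.9%, against 17.7% of all tested genes. PAX2 was at 12.4 and 8.94 TPM in knockouts, against 24.8 and 22.1 TPM in controls (log2 fold change -1.08, limma adjusted p = 0.027). CDH6 was at 89.04 and 76.5 TPM in knockouts, against 121 and 113 TPM in controls (limma adjusted p = 0.038), and KRT18 was at 267 and 285 TPM in knockouts, against 208 and 204 TPM in controls (limma adjusted p = 0.025). Without control 1 the limma adjusted p of DEK was 0.14, and without control 2 it was 0.10. None of 10 leukocyte, endothelial and hepatocyte markers passed 0.223 TPM in any library, and CD3E and APOA1 were among those listed at 0 throughout. Between 15170 and 15500 genes were above 1 TPM in each library.

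The summed mRNA of the 40 proteasome genes was 8211 and 8210 TPM in the knockout libraries, against 8284 and 8184 TPM in the controls. It was 0.821% and 0.821% of all transcripts in the knockouts and 0.828% and 0.818% in the controls. Both knockout sums lay between the control sums, but above both with the median ratio (8378 and 8343 in knockouts, against 7966 and 8111 in controls) and below both without the mitochondrial genome (9817 and 9829 in knockouts, against 10006 and 10109 in controls). Groups of subunits were summed separately. The core rings summed to 3812 and 3697 TPM in knockouts, against 4044 and 3978 TPM in controls. The subunits of the regulatory particle summed to 3379 and 3563 TPM in knockouts, against 3328 and 3314 TPM in controls. The activators summed to 870.2 and 808 TPM in knockouts, against 741 and 717 TPM in controls. Knockout and control libraries did not overlap in any of these 3 sums, lower in the knockouts for the core and higher for the other 2. With the median ratio the core sums overlapped, and without the mitochondrial genome those of the regulatory particle did, while the activator sums did not overlap under either scaling. In the TPM as listed, the direction of the regulatory particle rested on PSMD2. Without that gene the sums were 2820 and 2870 TPM in knockouts, against 2889 and 2884 TPM in controls, so both knockouts were lower. This sum was taken after the values had been seen. It was not repeated with the median ratio or without the mitochondrial genome, so the part of PSMD2 under those scalings is not known. The sums were not tested, because the genes were grouped with earlier results of these data known.

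**Figure D1:**
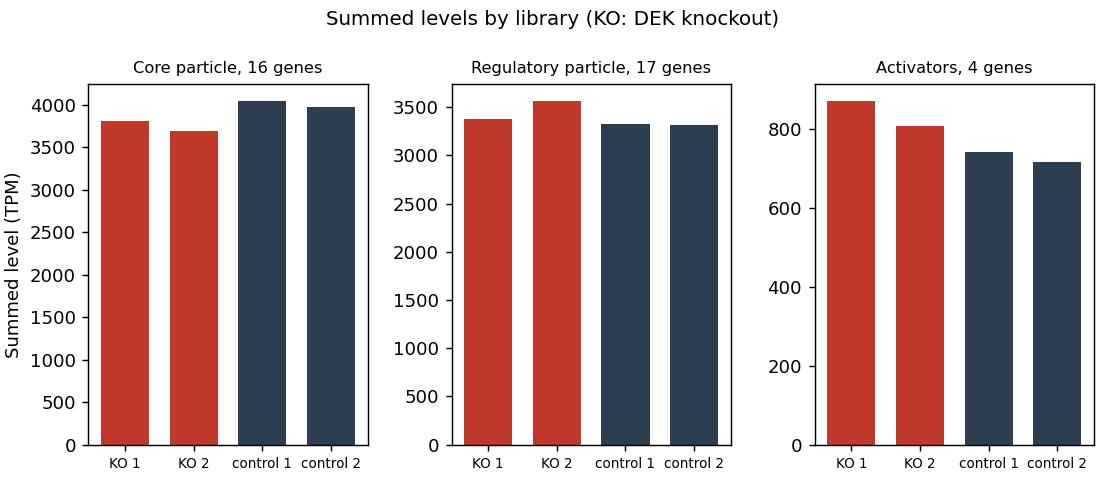
Summed level in TPM of the core, the regulatory particle subunits and the activators, in each library, with axes starting at 0. The core sums were lower in both DEK knockout libraries (KO) and the activator sums were higher. With the median ratio the core sums overlapped. The total over all proteasome genes, between 8184 and 8284 TPM in every library, is not drawn.

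Of the 40 genes, 37 had enough mRNA to be tested, and 5 of them changed. PSMD2 and PSME2 rose, which is 5.41% of the tested proteasome genes, against 9.06% of all tested genes. PSMA1, PSMA3 and PSME4 fell, 8.11% of the tested proteasome genes, against 8.67% of all tested genes. In either direction 13.5% were called, against 17.7% of all tested genes, so the share called was not above the background. At an unadjusted p under 0.05 there were 15, or 40.5% of the tested members, against 38.3% of all tested genes, a share that also stands behind the unadjusted counts of each subunit group. The counts rested on single libraries: without either one of the controls no proteasome gene was called, without knockout 1 there were 5 that rose and 11 that fell, and without knockout 2 there were 3 and 2. Scaling by the median ratio gave 3 that rose and 1 that fell, with PSMD8 among those that rose and without PSMA1 and PSME4. Subtracting chromosome medians gave 3 and 2, with PSMB7 among those that rose and without PSME4. Among all genes, the counts of 1433 that rose and 1371 that fell became 1588 and 955 with the median ratio and 1716 and 1128 with chromosome medians subtracted. They were 46 and 1 without control 1, and 44 and 7 without control 2.

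The changes were small. The median size of the log2 fold change was 0.16 over the tested proteasome genes, against 0.29 over all tested genes. Only PSMD2, or 2.703% of the tested members, reached a size of 0.5, against 27.8% of all tested genes, and no member reached 1, against 7.77%. Among genes with a mean of at least 50 TPM, the median size was 0.15 over 31 proteasome genes and 0.23 over 3159 genes. The signed median was -0.05 over the members and -0.06 over all tested genes, and that of the members turned positive with the median ratio (0.0070) and with the GC trend removed (0.041). Both knockouts lay above both controls for 7 members (18.9%, against 29.2% of all tested genes) and below both for 19 (51.4%, against 39.0%). The other 11 overlapped.

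**Figure D2:**
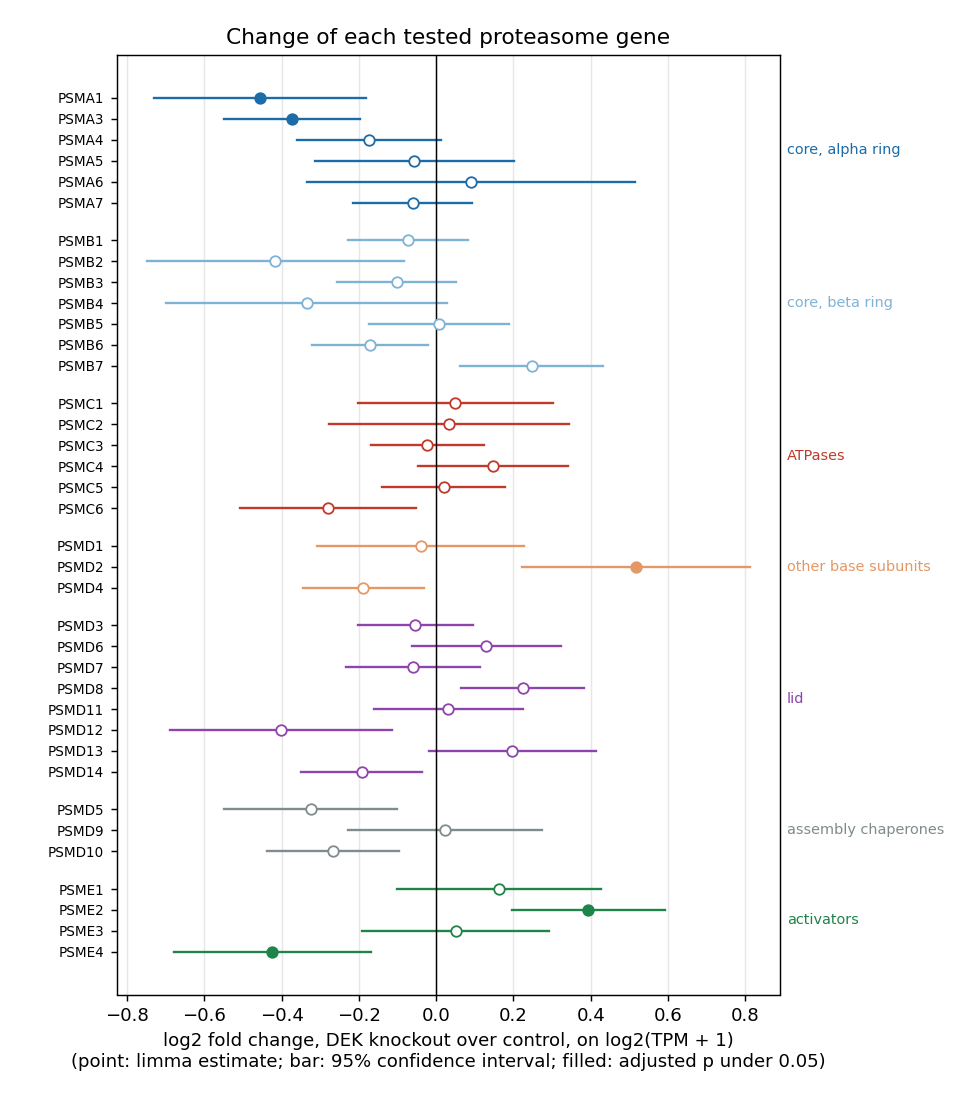
Log2 fold change of each tested proteasome gene, DEK knockout over control, on the log2(TPM + 1) scale, grouped by role. Points are limma estimates, bars 95% confidence intervals, and filled points have an adjusted p under 0.05. PSMD2 (0.52) and PSME2 (0.39) are the filled points to the right of 0, and PSMA1, PSMA3 and PSME4 those to the left.

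The alpha ring forms the gate of the core, and 2 of its 6 tested genes fell. That is 33.3%, against 8.67% of all tested genes, but the share rests on 2 genes and was not tested. PSMA3 (chromosome 14, 58244831 to 58272012, GRCh38) was at 128 and 135 TPM in knockouts, against 174 and 167 TPM in controls. The knockout libraries were close to each other and both below the controls. The log2 fold change was -0.37 (SE 0.067, limma adjusted p = 0.032), from means of 132 ± 4.64 TPM in knockouts and 171 ± 4.96 TPM in controls (SD, n = 2 each). PSMA3 is a transcript of low GC content (36.7%), and its difference was 0.0095 (limma adjusted p = 0.96) once the trend of all genes on GC content was removed, and -0.12 (adjusted p = 0.36) when GC content was taken from coding transcripts only. PSMA1 (chromosome 11, 14504874 to 14643635) was at 10.5 and 10.2 TPM in knockouts, against 14.7 and 14.4 TPM in controls. Replicates of a group differed by little beside the gap between groups, with means of 10.3 ± 0.179 TPM in knockouts and 14.5 ± 0.232 TPM in controls (SD, n = 2 each). The log2 fold change was -0.45 (SE 0.11, limma adjusted p = 0.049). Its adjusted p was between 0.032 and 0.31 over 16 alternatives and stayed under 0.05 in 5 of them.

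The other tested alpha subunits were not called. PSMA4 was at 70.6 and 68.3 TPM in knockouts, against 76.7 and 80.3 TPM in controls, with a log2 fold change of -0.17 (95% interval -0.36 to 0.013). PSMA7, the most abundant alpha subunit mRNA, was at 528 and 555 TPM in knockouts, against 563 and 565 TPM in controls. PSMA5 was at 87.9 and 77.2 TPM in knockouts, against 81.7 and 89.9 TPM in controls, and the groups overlapped. PSMA6 was at 9.21 and 7.67 TPM in knockouts, against 8.65 and 7.09 TPM in controls, again with overlap.

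PSMA8 encodes a testis form of an alpha subunit and was listed at 0 in every library. PSMA2 encodes a standard subunit of the ring, yet it was at 0.298 and 0.266 TPM in knockouts, against 0.274 and 0.330 TPM in controls, below the level needed for a test. The standard subunits therefore spanned a wide range of listed levels, although the assembled ring holds each of them in equal number. Apart from the tissue forms PSMA8 and PSMB11, the 4 members with the lowest levels were PSMA2, PSMA6, PSMA1 and PSMD9. In the GENCODE annotation a read-through gene on the same strand shares 97.1% of the coding bases of PSMA2, 70.4% of PSMA6, 88.6% of PSMA1 and 58.7% of PSMD9. The highest level listed for any of these read-through genes was 0.154 TPM. The part of this overlap in the low levels was not tested, and the levels of these 4 genes, PSMA1 among them, are uncertain to that extent.

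**Figure D3:**
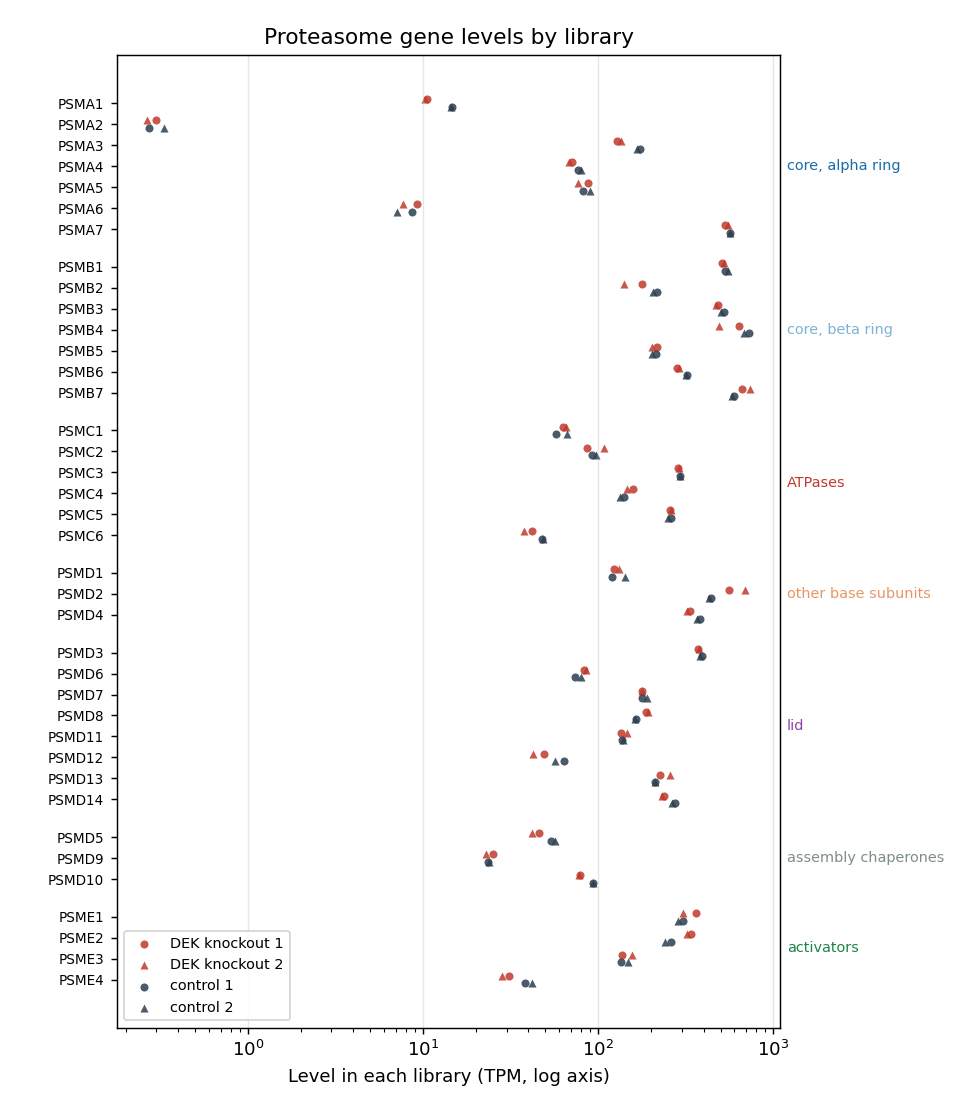
Level of each proteasome gene in each library in TPM on a log axis, DEK knockout and control libraries marked separately, grouped by role. Most genes lie between about 40 and 700 TPM with the 4 libraries close together, while PSMA1, PSMA2, PSMA6 and PSMD9 lie lowest apart from tissue forms, and values listed at 0 cannot be drawn on this axis.

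In the beta ring none of 7 tested genes was called by limma, and 3 had an unadjusted p under 0.05. The genes of the 3 cutting sites had estimates of different sign. PSMB5, the chymotrypsin-like site and the main target of proteasome inhibitors used in the clinic, was at 217 and 203 TPM in knockouts, against 213 and 204 TPM in controls. Its log2 fold change was 0.0082 (95% interval -0.17 to 0.19), and the groups overlapped. PSMB6, the caspase-like site, was at 280.2 and 288 TPM in knockouts, against 322 and 318 TPM in controls. Both knockouts were below both controls, at a log2 fold change of -0.17 (SE 0.058) and a limma adjusted p of 0.10. PSMB6 was called with the GC trend removed (-0.24, limma adjusted p = 0.047) and with that of coding transcripts removed (-0.24, limma adjusted p = 0.046). PSMB7, the trypsin-like site, was at 665 and 735 TPM in knockouts, against 594 and 584 TPM in controls. Both knockouts were above both controls, at a log2 fold change of 0.25 (SE 0.071) and a limma adjusted p of 0.075.

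The 4 standard beta subunits without a cutting site were lower in both knockouts than in both controls, although PSMB1 changed sign in 3 of 16 alternatives. PSMB2 was at 178 and 140.0 TPM in knockouts, against 217 and 205 TPM in controls, at a log2 fold change of -0.42 (SE 0.13) and a limma adjusted p of 0.084. PSMB4 was at 641 and 489 TPM in knockouts, against 729 and 684 TPM in controls, at a log2 fold change of -0.33 (SE 0.14) and a limma adjusted p of 0.15. For both genes knockout 2 was the lower of the knockouts, and neither passed the test. PSMB1 was at 509 and 520.0 TPM in knockouts, against 528 and 555 TPM in controls. PSMB3 was at 486 and 468 TPM in knockouts, against 520.2 and 504 TPM in controls. PSMB11, a form of the thymus, was listed at 0 in the knockouts and at 0.0535 and 0 TPM in the controls. Of the 13 tested core genes of both rings, 10 had a negative estimate, and their median was -0.10. Over the alternatives the number of negative estimates was between 7 and 12, and the median stayed negative in each.

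PSMB2 and PSMB4 lie on chromosome 1, as do PSMA5 and PSMD4, and the median log2 fold change of these 4 members was -0.26. All 1603 tested genes of chromosome 1 had a median difference from the control mean of -0.10 in knockout 1 and -0.26 in knockout 2. PSMB2 differed from the control mean by -0.25 in knockout 1 and -0.59 in knockout 2, and PSMB4 by -0.14 and -0.53. The order of the knockouts was thus that of the whole chromosome. With chromosome medians subtracted, the log2 fold change of PSMB2 was -0.25 in place of -0.42 and that of PSMB4 was -0.17 in place of -0.33, and no chromosome 1 member was called with or without that step.

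**Figure D4:**
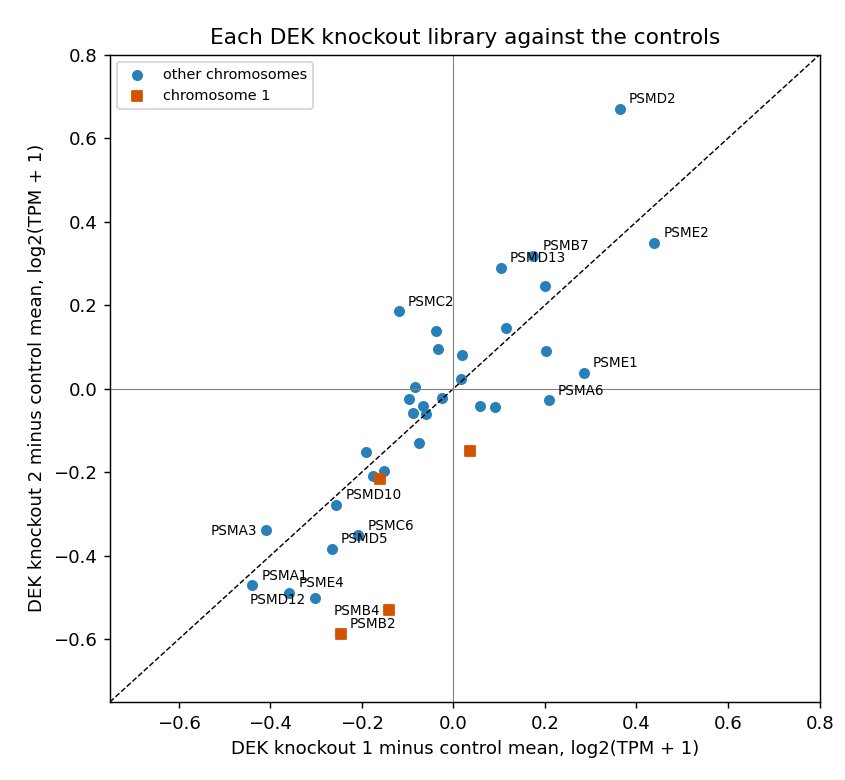
Difference of each tested proteasome gene from the control mean on the log2(TPM + 1) scale in DEK knockout 1 (x axis) and DEK knockout 2 (y axis). Squares mark the 4 members on chromosome 1, among them PSMB2 (-0.25 and -0.59) and PSMB4 (-0.14 and -0.53), which were lower in knockout 2 than in knockout 1, and PSMD2 (0.36 and 0.67) is farthest to the upper right.

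The regulatory particle held the largest change of the set. PSMD2 (chromosome 3, 184298709 to 184309054) encodes the scaffold of the base that binds shuttle factors and the deubiquitinase USP14. It was at 559 and 692 TPM in knockouts, against 438.5 and 431 TPM in controls. Both knockouts were above both controls, and the knockouts differed from each other by more than the controls did. The mean was 626 ± 94.0 TPM in knockouts and 435 ± 5.60 TPM in controls (SD, n = 2 each), 1.44-fold higher, at a log2 fold change of 0.52 (SE 0.11) and a limma adjusted p of 0.044. The call held in 10 of 16 alternatives, with adjusted p between 0.0018 and 0.20.

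The other members of the base were not called. PSMD1, the second large scaffold, was at 123 and 131 TPM in knockouts, against 120.1 and 142 TPM in controls, with overlap. PSMD4, a ubiquitin receptor on chromosome 1, was at 335 and 322 TPM in knockouts, against 381 and 368 TPM in controls. Its log2 fold change was -0.19 (SE 0.060, limma adjusted p = 0.092), and it was -0.023 with chromosome medians subtracted. Thus PSMD2 rose while the scaffold PSMD1 and the receptor PSMD4 did not pass the test, and the difference between these genes was not itself tested.

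None of the 6 ATPase genes was called by limma, and 1 had an unadjusted p under 0.05. That gene was PSMC6, at 41.8 and 37.7 TPM in knockouts, against 48.1 and 48.7 TPM in controls, at a log2 fold change of -0.28 (SE 0.088) and a limma adjusted p of 0.088. PSMC6 has a low GC content too (38.8%), and its difference was 0.041 with the GC trend removed. PSMC3 was at 287 and 288 TPM in knockouts, against 292 and 292 TPM in controls. PSMC5 was at 258 and 259.5 TPM in knockouts, against 262 and 249 TPM in controls. PSMC4 was at 158 and 146 TPM in knockouts, against 141 and 134 TPM in controls. Together the ATPases summed to 895 and 904 TPM in knockouts, against 893 and 887 TPM in controls. PSMC1 and PSMC2 overlapped between the groups. On the opposite strand, NRDE2, listed at up to 2.41 TPM in a library, covers 47.7% of the coding bases of PSMC1. FTSJ3, listed at up to 108 TPM, covers 10.5% of those of PSMC5. AC009120.2, listed at up to 6.95 TPM, covers 28.4% of those of the lid gene PSMD7. Without strand information, which is not given in the sources used here, reads in these overlaps cannot be told apart.

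In the lid none of 8 genes was called by limma, and 3 had an unadjusted p under 0.05. PSMD14, the deubiquitinase that cuts the chain from the substrate, was at 238 and 233 TPM in knockouts, against 274 and 265 TPM in controls. Its log2 fold change was -0.19 (SE 0.060, limma adjusted p = 0.087), and it turned to 0.29 with the GC trend of the longest transcripts removed. PSMD12 was at 48.9 and 42.4 TPM in knockouts, against 64.2 and 57.0 TPM in controls, at a log2 fold change of -0.40 (SE 0.11) and a limma adjusted p of 0.068. The log2 fold change of PSMD12 was -0.051 with the GC trend removed. PSMD8 was at 187 and 193 TPM in knockouts, against 164 and 162 TPM in controls, at a log2 fold change of 0.22 (SE 0.061) and a limma adjusted p of 0.067. PSMD13 was at 226 and 258 TPM in knockouts, against 211 and 210.2 TPM in controls, at a log2 fold change of 0.20 (SE 0.083) and a limma adjusted p of 0.16. PSMD8 and PSMD13 were above both controls in both knockouts, and PSMD12 and PSMD14 below.

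The remaining lid genes differed by less. PSMD3 was at 372 and 378 TPM in knockouts, against 394 and 384 TPM in controls. PSMD6 was at 83.2 and 84.97 TPM in knockouts, against 74.1 and 79.5 TPM in controls. PSMD7, the inactive partner of PSMD14, was at 177 and 177 TPM in knockouts, against 178 and 191 TPM in controls, and PSMD11 overlapped between the groups. Over the 17 subunits of the regulatory particle, 8 estimates were negative and 9 positive in the fit reported, and the sign of their median, 0.019, changed between alternatives, from -0.032 to 0.080.

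PSMD5, PSMD9 and PSMD10 are named as subunits but act as chaperones that help to assemble the base. None of the 3 was called by limma, and 2 had an unadjusted p under 0.05. PSMD10, also known as gankyrin, was at 78.6 and 77.4 TPM in knockouts, against 94.1 and 94.0 TPM in controls, at a log2 fold change of -0.27 (SE 0.066) and a limma adjusted p of 0.055. PSMD5 was at 45.8 and 42.1 TPM in knockouts, against 53.7 and 56.9 TPM in controls, at a log2 fold change of -0.32 (SE 0.086) and a limma adjusted p of 0.063. Both were below both controls in both knockouts. With the GC trend removed they were at -0.052 and -0.099. PSMD9 was at 25.2 and 22.9 TPM in knockouts, against 23.5 and 23.7 TPM in controls.

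Of the 4 activators PSME2 rose and PSME4 fell. That is 50% called, against 17.7% of all tested genes, but the share rests on these few genes and was not tested. PSME2 (chromosome 14, 24143362 to 24147570), the beta subunit of the activator PA28 that interferon induces, was at 340.3 and 319.9 TPM in knockouts, against 262 and 239.8 TPM in controls. Both knockouts were above both controls. The mean was 330.1 ± 14.5 TPM in knockouts and 251 ± 15.9 TPM in controls (SD, n = 2 each), 1.31-fold higher, at a log2 fold change of 0.39 (SE 0.076) and a limma adjusted p of 0.035. With the GC trend of coding transcripts removed the adjusted p was 0.068, and over 16 alternatives, 10 of which kept the call, it was between 0.021 and 0.22. PSME1, the alpha subunit of the same activator whose gene lies close to that of PSME2, was at 361 and 304 TPM in knockouts, against 306 and 287 TPM in controls. Knockout 2 lay within the controls, and the log2 fold change was 0.16 (SE 0.10, limma adjusted p = 0.30). The ratio of PSME2 to PSME1 was 0.942 and 1.05 in knockouts, against 0.858 and 0.835 in controls.

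PSME4 (chromosome 2, 53864067 to 53970840) encodes PA200, a nuclear activator linked to the degradation of acetylated histones in mouse testis. It was at 31.1 and 28.3 TPM in knockouts, against 38.4 and 42.0 TPM in controls. Both knockouts were below both controls, at a log2 fold change of -0.42 (SE 0.098) and a limma adjusted p of 0.049 from means of 29.7 ± 1.96 TPM in knockouts and 40.2 ± 2.54 TPM in controls (SD, n = 2 each). The call held in 3 of 16 alternatives, and with the GC trend removed the difference was -0.21 (limma adjusted p = 0.19). PSME3, which encodes the nuclear activator PA28 gamma, was at 137 and 155 TPM in knockouts, against 135 and 148 TPM in controls. Its groups overlapped, with a log2 fold change of 0.050 (95% interval -0.19 to 0.29).

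Base composition moved with these differences. The longest transcripts of all tested genes were divided into 4 equal classes by GC content, and the median log2 fold change of all tested genes was -0.30, -0.08, 0.04 and 0.11 from the lowest class to the highest. The members had 13 genes in the lowest class, with a median of -0.19, 7 in the second with -0.06, and 17 in the third with 0.05. None was in the highest. PSMA3 and PSME4, which fell, were in the lowest class, PSMA1 in the second, and PSMD2 and PSME2, which rose, in the third. The part of base composition in each call was not tested beyond the values given with each gene.

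**Figure D5:**
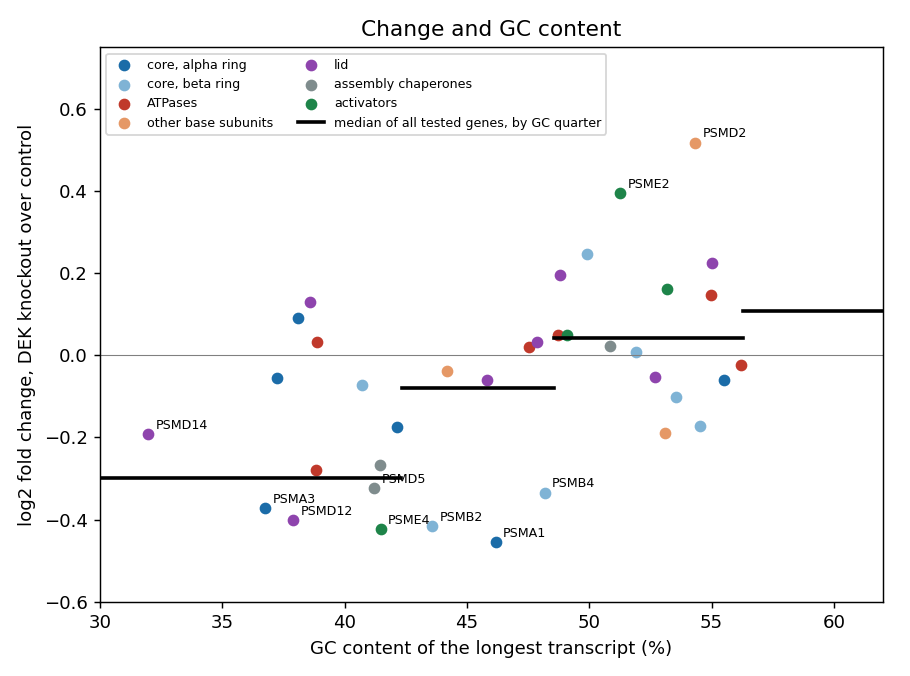
Log2 fold change of each tested proteasome gene, DEK knockout over control, against the GC content of its longest transcript in percent, coloured by role. Black lines are medians of all tested genes in each of 4 classes of GC content (-0.30, -0.08, 0.04 and 0.11), and the members with low GC content lie mostly below 0.

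The interferon-stimulated response element is a motif bound by interferon-regulated factors, and it was searched as GAAANNGAAA, on both strands, in the 300 bases from 250 before to 50 after the RefSeq start of each gene (GRCh38.p14). It was found in 3.65% of 27305 promoters and in 4 of the 35 members that have a promoter in that table. Each window runs 5′ to 3′ with the motif in capitals, and they are shown because they include both subunits of PA28, of which PSME2 rose, beside the inducible subunit PSMB10.
PSME2: cctggggagtGAAAGCGAAAgcccgggcga
PSME1: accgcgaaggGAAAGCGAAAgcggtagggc
PSMB4: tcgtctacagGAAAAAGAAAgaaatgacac
PSMA4: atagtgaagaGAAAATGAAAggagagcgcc
PSMB10: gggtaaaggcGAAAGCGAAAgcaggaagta
These lie at chr14:24146619-24146648 on the minus strand for PSME2, chr14:24136189-24136218 on the minus strand for PSME1, chr1:151399495-151399524 on the plus strand for PSMB4, chr15:78540155-78540184 on the plus strand for PSMA4 and chr16:67936852-67936881 on the minus strand for PSMB10. The motif of PSME2 begins 28 bases before the start. In PSME1 it lies on the opposite strand, 6 to 15 bases after the start. PSME2 and PSME1 share the motif letters, including the spacer, with PSMB10, but of these 3 genes only PSME2 was called. The inducible subunit PSMB9, which rose, has a promoter window in which GAAANNGAAA was not found. PSMB4 and PSMA4 hold the motif and were at lower values in both knockouts, so members with a match did not share a direction. PSMA4 turned positive with the GC trend removed (0.014). A match is a description of the letters and not of a bound site. The gamma-activated site, searched as TTCNNNGAA, was found in 7.88% of promoters and in 5 of the 35 members.

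The inducible core subunits, which replace PSMB5, PSMB6 and PSMB7 in immune forms of the core, are set beside them here because interferon raises them together with PSME2. Of 11 inducible subunits and peptide supply genes, 4 rose, which were PSMB9, PSMB8, TAP1 and TAPBP, and none fell. That is 36.4% higher, against 9.06% of all tested genes. PSMB9 was at 257 and 205 TPM in knockouts, against 100.3 and 94.8 TPM in controls (log2 fold change 1.23, limma adjusted p = 0.015), and PSMB8 was at 299 and 258 TPM in knockouts, against 201 and 181 TPM in controls (0.54, limma adjusted p = 0.034). The ratio of PSMB9 to PSMB6 was 0.917 and 0.711 in knockouts, against 0.311 and 0.298 in controls. The ratio of PSMB8 to PSMB5 was 1.38 and 1.27 in knockouts, against 0.940 and 0.885 in controls. The ratio of PSMB10 to PSMB7 went the other way, at 0.0806 and 0.0668 in knockouts, against 0.109 and 0.110 in controls. PSMB10 itself was at 53.6 and 49.1 TPM in knockouts, against 64.5 and 64.3 TPM in controls, with a log2 fold change of -0.32 (limma adjusted p = 0.057). A read-through gene on the same strand shares 58.3% of the coding bases of PSMB10, so its level and this ratio are uncertain as for PSMD9.

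Genes that regulate or feed the proteasome were counted from lists of their own. Of 11 genes of NFE2L1 processing and proteasome gene transcription, 3 rose and 1 fell, 36.4%, against 17.7% of all tested genes. The list did not share a direction. Both knockouts lay above both controls for 5 of the 11 (45.5%, against 29.2% of all tested genes). They lay below both for another 5 (45.5%, against 39.0%). NFE2L1, the factor that raises proteasome genes when proteasome capacity falls short, was at 254 and 299 TPM in knockouts, against 196 and 190.2 TPM in controls (log2 fold change 0.51, SE 0.096, limma adjusted p = 0.033). Its small MAF partners MAFF and MAFG also rose. MAFF was at 16.5 and 27.8 TPM in knockouts, against 6.74 and 6.07 TPM in controls (log2 fold change 1.60, limma adjusted p = 0.026), and MAFG was at 69.5 and 80.3 TPM in knockouts, against 54.6 and 51.4 TPM in controls (0.49, limma adjusted p = 0.039). NFE2L2, a related factor of the antioxidant response, fell to 48.3 and 48.7 TPM in knockouts, against 60.1 and 60.3 TPM in controls (log2 fold change -0.30, limma adjusted p = 0.0495). Without either control these 4 calls were lost, with limma adjusted p of 0.11 to 0.34, and NFE2L2 was called in 4 of 16 alternatives. The mRNA of NFE2L1 gives no measure of its processed protein.

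NFE2L1 and MAF proteins bind the antioxidant response element, whose core was searched as TGACNNNGC. It was present in 13.6% of the 27305 promoters and in 10 of the 35 members with a promoter, or 28.6%. Windows of 6 of them are printed 5′ to 3′ with the motif in capitals, chosen to include PSME2, which rose, PSME4, which fell, and members of the core and the lid and a chaperone that were not called.
PSME2: ccctggactgTGACCCAGCcagcaccgcct
PSME4: ggctctgctggTGACGCTGCagccgccggg
PSMB3: gcctccgtttTGACTTTGCaaccaaactac
PSMD3: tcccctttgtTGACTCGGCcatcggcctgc
PSMD12: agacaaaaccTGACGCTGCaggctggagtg
PSMD5: tggctacagtTGACACGGCcctaacggagg
The windows are chr14:24146766-24146795 on the minus strand for PSME2, chr2:53971008-53971037 on the plus strand for PSME4, chr17:38752627-38752656 on the plus strand for PSMB3, chr17:39980760-39980789 on the plus strand for PSMD3, chr17:67366723-67366752 on the minus strand for PSMD12 and chr9:120843037-120843066 on the minus strand for PSMD5. PSME4 and PSMD12 hold the same 9 letters, and the motif of PSME4 is on the strand opposite to the gene. The promoter of PSMD2, the member with the largest change, has a listed window in which these letters were not found. The members with the motif included a gene that rose, a gene that fell and 8 that were not called.

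Among 6 genes of ubiquitin and its activating enzymes, 2 rose and none fell. That is 33.3% higher, against 9.06% of all tested genes. The median log2 fold change of this list was 0.12, with 5 positive estimates and 1 negative. One that rose was UBB, a stress-responsive gene of tandem repeats. UBB was at 1317 and 1471 TPM in knockouts, against 1052 and 1040.1 TPM in controls (log2 fold change 0.41, limma adjusted p = 0.031). Of 11 tested shuttle and delivery genes, UFD1, a partner of the unfoldase VCP, rose, at 104 and 112 TPM in knockouts, against 79.1 and 78.2 TPM in controls (log2 fold change 0.45, limma adjusted p = 0.027). UFD1 lies on chromosome 22, whose tested genes had a median difference from the control mean of 0.19 in knockout 1 and 0.26 in knockout 2, and its lowest estimate over the alternatives was 0.23. The shuttle UBQLN2 fell, at 25.4 and 23.8 TPM in knockouts, against 39.3 and 33.5 TPM in controls (-0.54, limma adjusted p = 0.041). The calls of UFD1 and UBQLN2 are 18.2% of the shuttle and delivery list, against 17.7% of all tested genes, so the share was near the background.

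Of 9 further subunits and associated proteins, TXNL1, a thioredoxin bound to the regulatory particle, fell, at 15.7 and 14.4 TPM in knockouts, against 23.2 and 20.3 TPM in controls (log2 fold change -0.50, limma adjusted p = 0.049). None rose, and the 1 call is 11.1% of the list, below the 17.7% of all tested genes. ADRM1, a ubiquitin receptor, was at 347 and 423 TPM in knockouts, against 310 and 287 TPM in controls, and did not pass (limma adjusted p = 0.089). USP14, which docks on PSMD2, was at 51.2 and 46.4 TPM in knockouts, against 66.7 and 59.4 TPM in controls (limma adjusted p = 0.067). None of 5 core assembly chaperones was called by limma. An unadjusted p under 0.05 was found for 2 of the 5, against 38.3% of all tested genes. These were PSMG4 (log2 fold change 0.51) and PSMG1 (-0.24), of opposite sign. Without either control the calls of UBB, UFD1, UBQLN2, TXNL1 and the inducible group were lost too, and TXNL1 was called in 4 of 16 alternatives. With the GC trend removed the limma adjusted p was 0.053 for PSMB8, 0.11 for TAPBP, 0.057 for UBQLN2 and 0.24 for TXNL1. PSMB9, TAP1, UBB and UFD1 stayed called in that alternative. TAPBP and UBQLN2 were each called in 8 of 16 alternatives. The median log2 fold change was 0.42 over the inducible and peptide supply genes, 0.22 over the NFE2L1 list, -0.10 over the shuttles, 0.0091 over the associated proteins and -0.013 over the core assembly chaperones, against -0.06 over all tested genes.

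The annotated pseudogenes of proteasome genes held little signal. Of 42 such rows, 21 were at 0 in every library, the highest value in any library was 2.93 TPM, for PSME2P2, and the sums were 11.4 and 13.2 TPM in knockouts, against 8.56 and 11.1 TPM in controls.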

How the data were processed

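Polyadenylated RNA of 786-O cells was measured in 2 DEK knockout and 2 control libraries, grouped by their titles. The authors deposited TPM for 59409 gene symbols, each library summing to 1000000. Read depth and counts are therefore unknown. The tools named, without roles, in the submitters' processing notes are featureCounts 2.0.1, DESeq2 1.36.0, STAR 2.7.8a and cutadapt 1.18, and the build is hg38. The sources used here do not give the annotation, gene lengths or strand setting.

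The 15815 genes that reached 1 TPM in 2 or more libraries were fitted as log2(TPM + 1) with limma 3.58.1 in R 4.3.3, with a variance prior that follows the mean and the group as the only term. P-values were adjusted by Benjamini-Hochberg over these genes. The log2(TPM + 1) scale understates changes of low genes. An exact permutation test of 2 against 2 libraries cannot go below p = 0.333 and was not used. Positions are from GENCODE release 29, matched by symbol for 54390 rows and through current symbols for 2209. Promoter windows are from RefSeq on GRCh38.p14, 1 per gene, and 35 of the 40 members had one. Protein sequences were not used here.

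Every member may be named. Given in full were those past the threshold, the catalytic subunits, the activators and the 6 largest changes. Log2 fold changes of other members are printed only where their size was at least 0.15. From other lists, genes past the threshold and up to 3 with the smallest p were named. Some genes of these lists are withheld and are not reported here. Members, lists and tests were chosen with earlier results of these data known. Equal replicate numbers were not taken to pair libraries.

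In a simulation of the knockout against control comparison with 15815 genes, 0% of genes changed 1.25-fold, 6% changed 1.5-fold, 50% changed 2-fold and 82% changed 4-fold were recovered. Of 73 calls, 4 were unchanged genes. The data gave 2804 calls and so a less strict threshold on the unadjusted p, and these rates need not hold for them. The alternatives covered pseudocount, filters, scaling, quantile normalization, variance prior, leaving out each library, a replicate block, a stricter threshold, GC content and chromosome medians. The alternative with GC content taken from coding transcripts was added after the data had been seen.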

Additional observations from a re-analysis of the deposited data

How the results depend on the processing

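Depth is unknown, and with 2 libraries per group each library weighs heavily on the calls. Leaving out 1 library gave 0 to 5 members that rose and 0 to 11 that fell, and 44 to 2375 genes that rose and 1 to 3135 that fell among all genes. In such a fit the lone library of a group is assumed to vary like the others. The cause of each difference between settings was not tested. Without the filter on low TPM, 0 members rose and 0 fell, with 26 and 0 genes among all. Without the variance trend, 0 members rose and 0 fell, with 866 and 571 genes. At an adjusted p of 0.01, 0 and 0 members and 80 and 10 genes remained past the threshold. Quantile normalization gave 1 member that rose and 1 that fell. With the median ratio 1 fell, PSMA3. With the GC trend removed 1 fell, and with the trend of coding transcripts removed 1 rose (PSMD2) and 1 fell. The gene that fell in both was PSMB6, while PSMA1, PSMA3 and PSME4 were no longer called. With the GC trend removed and a replicate block 1 rose and 0 fell, with 713 genes that fell among all, and the gene that rose was PSMD6, not PSMD2 or PSME2.

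The median log2 fold change of the tested members, -0.054, was 0.0070 with the median ratio, 0.041 with the GC trend removed with or without the block, -0.019 with the trend of coding transcripts removed, -0.084 without the mitochondrial genome, -0.0018 with chromosome medians subtracted and -0.067 to -0.024 without single libraries. Of 592 values of single members under alternatives, 59 had the opposite sign, in 19 members, of which only PSMA3 was called. With the GC trend removed, with or without the block, PSMA3 was at 0.0095, PSMA4 at 0.014, PSMB5 at -0.039, PSMC6 at 0.041 and PSMD14 at 0.29. With the trend of coding transcripts removed, PSMA4 was at 0.024, PSMB5 at -0.037 and PSMC6 at 0.12. PSMB5 was at -0.0069 with quantile normalization, -0.022 without the mitochondrial genome and -0.042 to 0.058 without single libraries, with -0.042 without knockout 1 and -0.024 without control 2. PSME3 was at -0.038 to 0.14 without single libraries, with -0.038 without knockout 2 and -0.014 without control 1.

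The labels do not tie equal replicate numbers, and the difference between replicates 1 and 2 correlated by r = 0.0989 between knockouts and controls across 15815 genes, which are not independent replicates. With the replicate number as a block, 2 members rose (PSMD2 and PSME2) and 2 fell (PSMA3 and PSMD12), with 1423 and 1548 genes among all, and the limma adjusted p of PSMA1 and PSME4 was 0.069 and 0.068.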
